A study of Mus musculus with 31 samples.

Results

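Mouse retina samples carried widely different amounts of crystallin RNA, and the arrays at both ends of that range were set against each other. The arrays were chosen by the deposited intensity of the probe for Crygs, the gene of gamma-S crystallin: of 31 ranked arrays the 8 highest (lens-rich) were compared with the 8 lowest (lens-poor), which makes 16 of 31. Mean Crygs levels of the sets were 123-fold apart. The other 15 arrays are called middle arrays. Because Crygs levels on these same arrays made the sets, every difference between the 2 sets is given as a description with no test, and the genes that follow Crygs were tested only in the middle arrays.

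Each array was a single-colour Illumina BeadChip array read with total RNA from a whole retina sample, and the strain was C57BL/6J throughout. The Ins2Akita group (9 arrays, genotype Ins2Akita/Ins2) carries an insulin mutation that damages pancreatic beta cells, and the wild-type group (8 arrays, genotype Ins2/Ins2) is its control. The STZ group (6 arrays) received streptozotocin, a compound toxic to beta cells, and the untreated group (8 arrays) is its control. Diabetic retinas were taken after 3 months of hyperglycaemia. The labels give no age, and nothing in them says whether samples came from separate animals or were pooled, so a p-value here covers no more than the scatter among arrays, part or all of which may be technical.

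The lens is a transparent body made of elongated fibre cells under a single-layered epithelium. Its fibre cells fill with crystallins, the soluble proteins that give the lens its refractive power: the alpha crystallins are small heat shock proteins and chaperones, and the beta and gamma crystallins form a separate structural family. Fibre cells also carry their own membrane proteins and a cytoskeleton of beaded filaments. Lens tissue lies next to the retina in the eye cup and has to be taken off at dissection. Some crystallins, such as Cryab, are also made by retinal cells, and in bulk RNA fewer cells of a type and less RNA per cell cannot be told apart.

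Crygs intensity reached 22124 in Ins2Akita 6, 22006 in untreated 2, 21103 in STZ 4, 16776 in wild type 8, 16729 in wild type 7, 15318 in wild type 6, 14126 in Ins2Akita 2 and 4607 in STZ 2. In the lens-poor arrays it was 696 in Ins2Akita 8, 546 in Ins2Akita 1, 380 in untreated 6, 222 in Ins2Akita 3, 108 in Ins2Akita 7, 81.6 in untreated 4, 62.8 in wild type 1 and 58.1 in Ins2Akita 4. The rank ran without a break at either edge of the sets. STZ 2 at 4607 was the lowest array inside the lens-rich set and wild type 5 at 3528 the first outside it, while Ins2Akita 8 at 696 was the highest lens-poor array and Ins2Akita 9 at 719 the first outside. Crygs was detected on all 8 lens-rich arrays, all 15 middle arrays and 7 of the 8 lens-poor arrays.

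**Figure D1:**
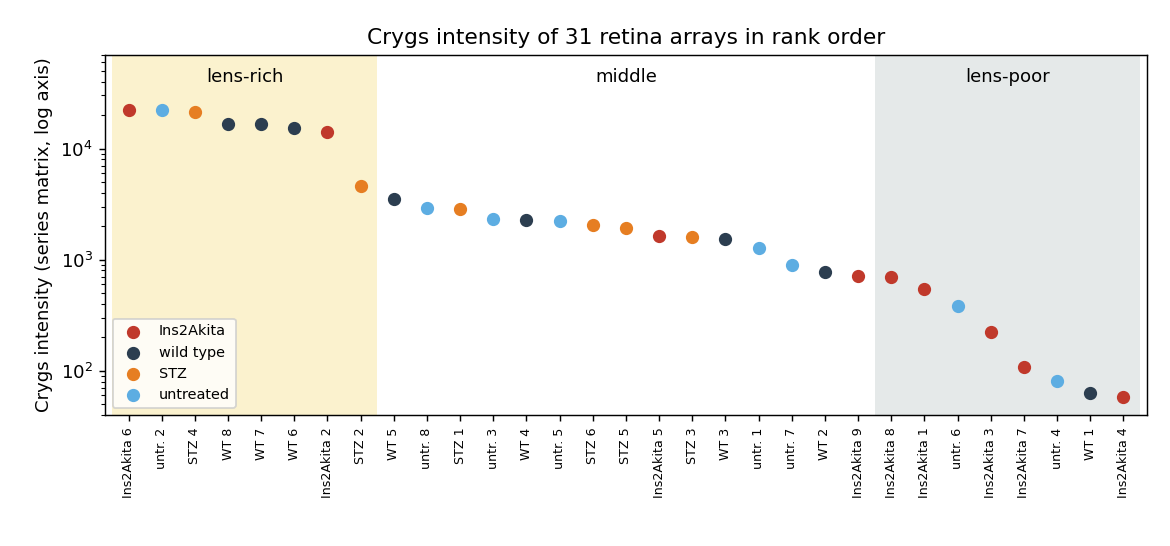
Crygs intensity in the deposited series matrix (log axis) for each of the 31 arrays in rank order, with colours for the study group and shading for the lens-rich and lens-poor sets. The lens-rich arrays other than STZ 2 lie between 14126 and 22124 and STZ 2 lies at 4607, near the middle arrays; arrays of more than 1 study group are found at both ends.

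Both sets held several study groups. Ins2Akita gave 2 lens-rich and 5 lens-poor arrays, wild type 3 and 1, STZ 2 and 0, and untreated 1 and 2. BeadChip and group cannot be told apart, since each chip held 1 group, except that Ins2Akita 9 was on the chip of the STZ group. Numbers of detected probes overlapped, at 14581 to 15855 on lens-rich and 15246 to 16460 on lens-poor arrays. Any 2 arrays of the series correlated at 0.954 to 0.994, and 0 pairs held identical values. Crystallin probes took 0.325% to 2.14% of the summed intensity of a lens-rich array and 0.0135% to 0.0535% of that of a lens-poor array. The highest crystallin intensity, 24884, was below the highest intensity of any probe, 31704.

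Levels below are log2 values after a further background correction and quantile normalization. A probe was called when its 8 lens-rich and 8 lens-poor arrays did not overlap and the mean difference was at least 1.5-fold. Of 16743 probes detected on enough arrays, 33 were called higher in the lens-rich arrays (0.197%) and 0 lower (0%). The called probes stand for 31 genes, of which 13 are crystallins (14 probes) and 18 are not (19 probes). Cryga and Wnt7b, both among them, passed the detection filter only through the lens-rich arrays, where they are high. Dropping the size limit gave 35 probes without overlap in either direction (0.209%). The median difference over all probes was -0.01. Of the 8954 probes left out as too dim, 1 would have been called, Palm2, whose protein is bound to the cell membrane by a lipid anchor, with a difference of 0.79 and detection on 4 lens-rich and 0 lens-poor arrays. It was named after its values were seen.

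The beta and gamma crystallins held 12 measured genes, of which 11 were called, and their median difference was 6.49 on the log2 scale. Crybb2, a major beta crystallin of the lens, had levels of 12.80, 14.35 and 14.50 in the lens-rich arrays (lowest, median and highest) against 4.82, 7.54 and 10.07 in the lens-poor arrays, a mean difference of 6.83. Cryba2, another of the chosen lens markers, had 12.09, 13.90 and 14.41 against 5.09, 6.91 and 9.60, a difference of 6.65. Both given lens markers were thus high on all 8 lens-rich arrays and below that range on all 8 lens-poor arrays; they were chosen with these results known. The Cryba1 probes differed by 7.26 and 7.02, and Cryba4, Crybb3 and Crybb1, subunits of the same beta family, by 6.85, 6.14 and 5.70. Crybb1 was detected on 2 of the 8 lens-poor arrays, and its difference was 5.51 with lens-poor levels raised to the lowest detected signal of each array.

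Of the gamma crystallins, which pack the dense core of the lens, Crygb differed by 6.54, Crygd by 6.45 and Crygc by 6.28. Crygc had levels of 7.26, 11.24 and 14.15 in the lens-rich arrays and 4.44, 4.92 and 5.41 in the lens-poor arrays, and was detected on all 15 middle arrays and on 4 of the 8 lens-poor arrays. Cryga was detected on 5 lens-rich, 1 middle and 0 lens-poor arrays, so its difference is a bound, at least 1.59-fold. Without the lens-rich arrays Cryga would not have passed the filter of 6 arrays. Crygn was the measured member that was not called: its brightest probe had levels of 4.68, 6.78 and 7.87 against 4.51, 4.68 and 5.44, and the sets overlapped. Cryge and Crygf were not measured. Gamma crystallin genes are close copies of each other, and probes for them may read more than 1 gene.

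Both alpha crystallins were called. Cryaa, a chaperone most abundant in the lens, had levels of 10.88, 13.79 and 14.11 against 4.67, 5.44 and 8.36, a difference of 7.17. Cryab, which retinal cells also make, had 10.39, 13.07 and 13.45 against 8.63, 8.91 and 9.14, a difference of 3.51. The lens-poor arrays thus kept a level of Cryab above background on all 8 arrays, while Cryaa was detected on 6 of them. Proteins called crystallins by name but working as enzymes or regulators elsewhere (Crym, Cryl1, Cryz, Cryzl1, Crybg3) showed 0 of 5 genes called, with a median difference of 0.01.

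Crystallin promoters are known to be bound by lens regulators such as the Maf factors, and 3 promoter windows of called crystallin genes are printed here. Each of the 3 holds at least 1 of the motifs described below. They are from RefSeq on GRCm38.p6, run from 250 bases before the start of transcription to its edge, and are written 5′ to 3′ on the strand of the gene. Capitals mark TGCTGAC, a site bound by Maf factors, and TATAAA, the letters of a TATA box, each searched on both strands, and the motifs do not share letters. The windows are chr17:31677681-31677930 on the plus strand for Cryaa, chr11:77725294-77725543 on the minus strand for Cryba1 and chr16:22811411-22811660 on the minus strand for Crygs, the gene the arrays were ranked by.
Cryaa: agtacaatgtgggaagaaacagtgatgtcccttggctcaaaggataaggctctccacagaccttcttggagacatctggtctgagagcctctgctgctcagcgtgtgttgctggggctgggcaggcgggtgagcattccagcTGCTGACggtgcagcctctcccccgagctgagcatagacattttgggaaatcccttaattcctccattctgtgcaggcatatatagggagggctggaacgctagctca
Cryba1: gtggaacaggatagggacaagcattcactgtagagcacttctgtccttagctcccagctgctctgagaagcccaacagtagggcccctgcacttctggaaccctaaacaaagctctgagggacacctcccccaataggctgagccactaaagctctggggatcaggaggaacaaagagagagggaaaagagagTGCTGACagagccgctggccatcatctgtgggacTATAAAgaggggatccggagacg
Crygs: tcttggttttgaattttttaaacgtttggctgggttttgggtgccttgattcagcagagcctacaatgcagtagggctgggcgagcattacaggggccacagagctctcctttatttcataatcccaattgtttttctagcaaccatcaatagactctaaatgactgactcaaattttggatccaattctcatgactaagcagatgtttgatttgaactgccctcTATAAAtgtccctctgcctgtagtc
Of the 31 called genes, 24 were in the promoter table. TGCTGAC was present in 5 of 12 called crystallin genes (41.7%), in 0 of 12 other called genes and in 4.31% of all 27025 genes of the table, and the 5 were Cryaa, Cryba1, Cryba4, Crybb1 and Cryga. TATAAA was present in 3 of the 12 crystallin genes (25%), 1 of the 12 other genes, Lgsn, and 14.3% of all genes. Cryba2 and Crybb2, the other given lens markers, had neither motif in their windows. A match is a description of letters in the window and not a bound site.

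Of the 11 measured genes of the fibre cell membrane and cytoskeleton 6 were called, all 11 differences were above 0, and their median was 1.70. Mip, the water channel aquaporin 0 and the main protein of the fibre cell membrane, had levels of 8.10, 12.06 and 13.52 in the lens-rich arrays against 4.47, 4.65 and 6.57 in the lens-poor arrays, a difference of 6.62. Lgsn, or lengsin, a glutamine synthetase relative of the lens with a structural part, had 6.34, 9.99 and 13.05 against 4.43, 4.57 and 4.97, a difference of 5.32, and was detected on 1 lens-poor array. Lim2, a fibre membrane protein also detected on 1 lens-poor array, differed by 4.45. With lens-poor levels raised to the lowest detected signal of each array, the differences were 6.39 for Mip, which was detected on 3 lens-poor arrays, 5.04 for Lgsn and 4.13 for Lim2.

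Bfsp1 and Bfsp2, filensin and phakinin, the 2 parts of the beaded filament, differed by 3.90 and 3.67, and were detected on 1 and 3 lens-poor arrays. The raised lens-poor levels gave 3.60 for Bfsp1 and 3.36 for Bfsp2. Over the 18 called probes detected on some but not all lens-poor arrays, that raising lowered a difference by at most 0.33. Aqp5, a water channel of the lens and cornea, differed by 1.70 and 1.34 on its 2 probes. The members that were not called were Tmod1, Nrcam, Epha2, Slc7a11 and Dnase2b, whose differences were 0.00, 0.31, 0.33, 0.22 and 0.55. Dnase2b, the enzyme that breaks down the DNA of maturing fibre cells, reached 7.24 in untreated 2 and 6.34 in STZ 4. On the other lens-rich arrays it was at most 5.21. Gja3, Grifin and Birc7 were not measured.

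**Figure D2:**
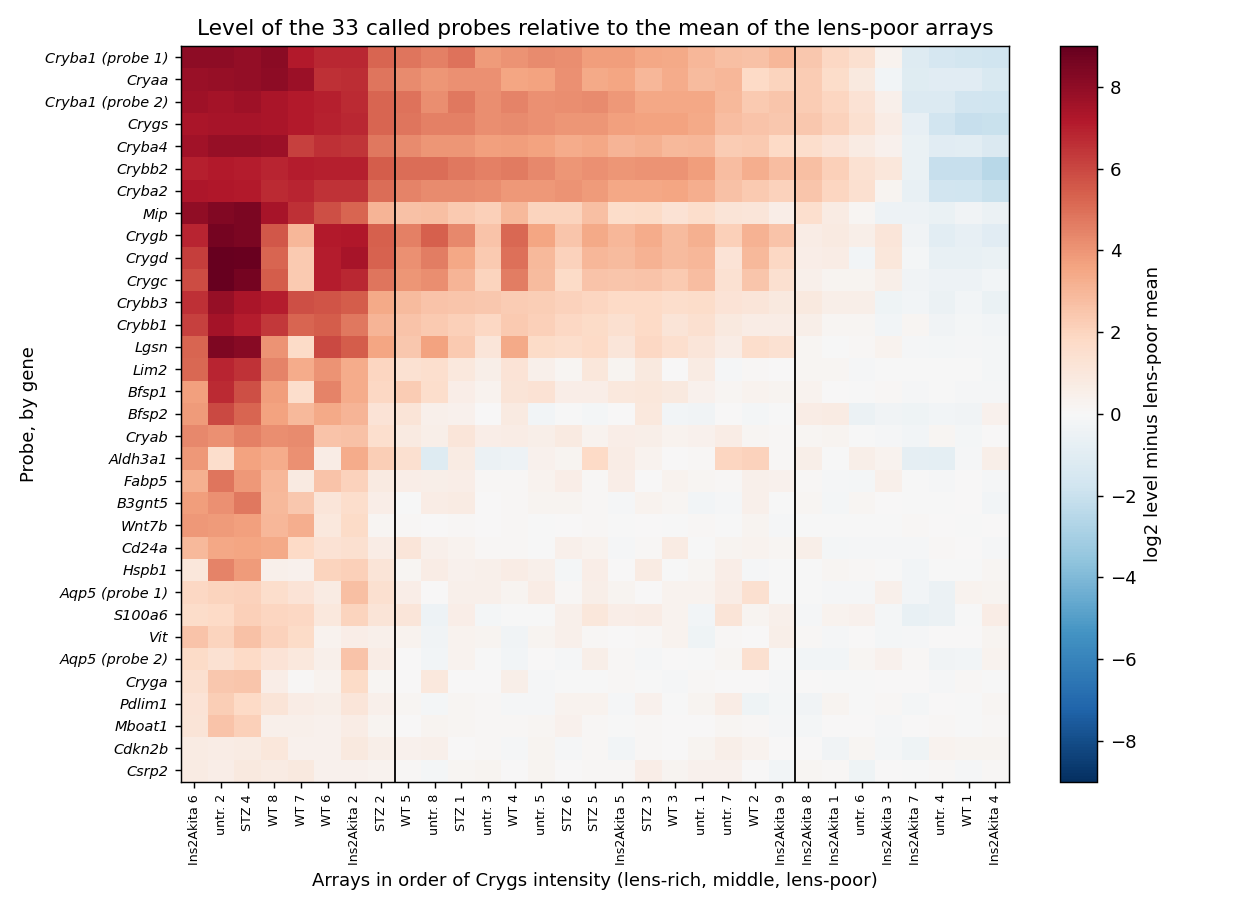
Log2 level of the 33 called probes (rows, ordered by difference) minus the mean of the lens-poor arrays, over the 31 arrays in order of Crygs intensity (columns). Black lines part lens-rich, middle and lens-poor arrays; the beta crystallins fall steadily along the rank, while the gamma crystallins and Lgsn are low in wild type 7, and most rows from Cryab down are near the lens-poor mean in the middle arrays.

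Genes outside the crystallin and fibre lists were also among the calls. After Mip, Lgsn, Lim2, Bfsp1 and Bfsp2 came Aldh3a1, an aldehyde dehydrogenase that is a major soluble protein of the cornea, with levels of 7.18, 9.84 and 10.57 against 5.58, 6.64 and 7.02, a difference of 2.85. Fabp5, the epidermal fatty acid binding protein, had 6.39, 8.33 and 10.37 against 5.40, 5.50 and 5.98, a difference of 2.66. B3gnt5, a glycosyltransferase that starts the lacto-series glycolipids, also differed by 2.66.

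Wnt7b, a Wnt ligand, was not well above background on any middle or lens-poor array, and its difference is therefore at least 4.29-fold, from 7 lens-rich arrays that detected it. Those 7 arrays alone took Wnt7b past the detection filter. Cd24a, a surface sialoglycoprotein, differed by 2.32, with detection on 8 lens-rich and 1 lens-poor array, and by 1.99 with the raised lens-poor levels. Hspb1, a small heat shock protein, had levels of 6.98, 8.21 and 11.11 against 6.38, 6.61 and 6.76, a difference of 1.93. Outside the rule for named genes, and named because they complete the count, were S100a6, Vit, Pdlim1, Mboat1, Cdkn2b and Csrp2, with differences of 1.69, 1.55, 1.13, 1.01, 0.67 and 0.62.

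Lens-rich arrays differed among themselves in which lens genes they held. Relative to Crygs on the same array, Cryba1 spanned 0.30 on the log2 scale over the 8 arrays and Crybb2 0.72. Crygc spanned 6.60, Lgsn 6.42, Crygd 6.41, Crygb 5.32, Bfsp1 4.82 and Mip 3.20. Untreated 2 and STZ 4 lay highest for Crygc, at 2.02 and 1.41 above the median of the 8 arrays, and wild type 7 lay lowest, at -4.58. Crygc had a level of 7.26 in wild type 7 and 14.15 in untreated 2, although Crygs was within the lens-rich range in both.

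Mip followed another order, with STZ 4 highest at 1.26 above the median and STZ 2 lowest at -1.95. Aldh3a1 had a level of 10.57 in wild type 7, its highest, and 8.05 in untreated 2. Hspb1 was 6.98 in wild type 7 and 11.11 in untreated 2. Wild type 7 also had the highest pigment epithelium score of the lens-rich arrays, 1.46, where the other 7 lay between -1.23 and 0.32, and a skeletal muscle score of 1.48, where the other 7 lay between -0.44 and 0.06. A score is the mean log2 level of a marker list, with 0 as the mean of all arrays. The part of those tissues in these differences was not tested.

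**Figure D3:**
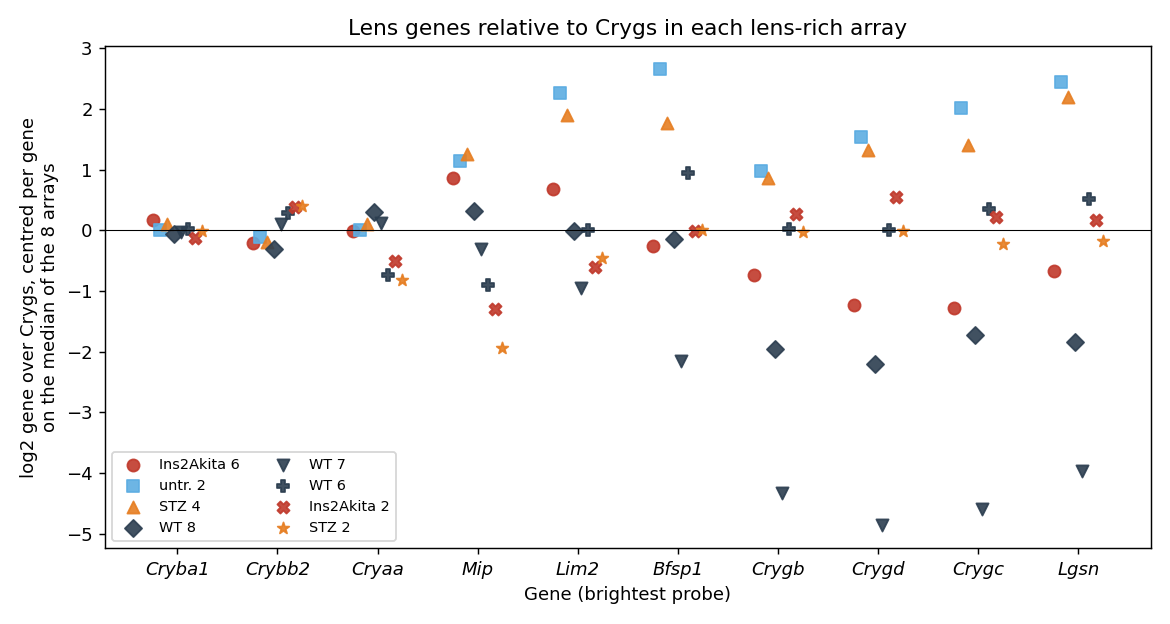
Log2 level of 10 lens genes minus that of Crygs on the same array, centred per gene on the median of the 8 lens-rich arrays, with 1 symbol per array and colours for the study group. Cryba1 spans 0.30 over the arrays and Crygc 6.60, with untreated 2 and STZ 4 high and wild type 7 low for the gamma crystallins and Lgsn.

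The 15 middle arrays lie in neither set, although the same ranking by Crygs placed them between the sets. They were tested for a slope on Crygs, the ranking probe itself, with study group in the model. Their Crygs levels ran from 9.38 to 11.76. Among 16742 probes other than Crygs, 9 had a slope that passed at an adjusted p under 0.05 with limma, all upward (0.0538%), and 0 passed downward, while 1191 had an unadjusted p under 0.05 (574 upward and 617 downward). All 9 were among the 33 called probes, and 8 of the 9 are crystallins. The slopes of the probes that passed, in log2 units per log2 unit of Crygs, were 1.05 ± 0.078 and 0.99 ± 0.094 for Cryba1, 0.97 ± 0.116 for Cryaa, 0.95 ± 0.078 for Crybb2 and 0.95 ± 0.060 for Cryba2 (SE, n = 15 arrays, limma), and 0.92, 0.81 and 0.78 for Cryba4, Crybb1 and Crybb3.

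Mip was the 1 gene that is no crystallin to pass, with a slope of 0.81 ± 0.122 (SE, n = 15 arrays, adjusted p = 0.0185, limma). Its middle-array levels ran from 5.67 to 7.97. The Mip slope did not pass without wild type 2 (adjusted p = 0.172), wild type 5 (0.0598), Ins2Akita 5 or Ins2Akita 9 (0.0838 each), untreated 7 (0.0929) or untreated 8 (0.066), all by limma, and its size stayed between 0.77 and 0.85 in these fits. Without a detection filter it had an adjusted p of 0.0791, and on the series matrix its slope was 0.57 with an adjusted p of 0.122 (limma).

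Of 32 called probes with a slope, 23 had one above 0. Gamma crystallins had slopes of 0.95 for Crygb, 0.94 for Crygd and 0.93 for Crygc, with standard errors of 0.271, 0.252 and 0.232, and adjusted p-values of 0.624, 0.600 and 0.486 (limma). The fibre genes Bfsp1, Lgsn and Lim2 had slopes of 0.65, 0.72 and 0.54 and adjusted p-values of 0.409, 0.644 and 0.600 (limma). Slopes nearer 0 belonged to Fabp5 (0.12), Cd24a (0.11), Hspb1 (0.10), B3gnt5 (0.07) and Wnt7b (0.00), and Aldh3a1 had -0.64 with an adjusted p of 0.713 (limma). None of these slopes passed. Fabp5 and Hspb1 were detected on all 15 middle arrays, B3gnt5 on 10, Cd24a on 5 and Wnt7b on 0. The Wnt7b slope was therefore fitted to background and cannot show whether Wnt7b follows Crygs. The slopes of Cd24a and B3gnt5 rest in part on background. In the fibre list 6 of 11 slopes were above 0, with a median of 0.10, and in the beta and gamma crystallins 10 of 11, with a median of 0.93. A slope that misses the threshold does not show that a gene fails to follow Crygs, and the middle arrays cover only a small part of the range of Crygs.

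**Figure D4:**
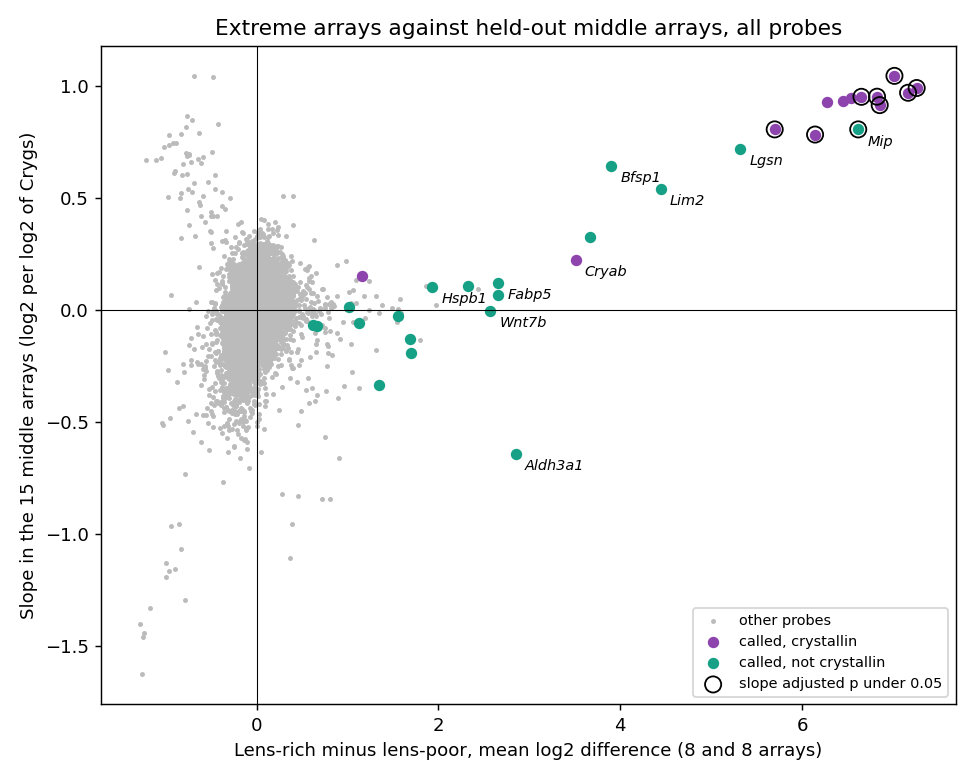
Mean log2 difference of the lens-rich minus the lens-poor arrays (horizontal) against the slope on Crygs in the 15 middle arrays (vertical) for each probe other than Crygs. Purple points are called crystallins, green points other called genes and grey points the rest; black rings mark the 9 probes whose slope passed, 8 crystallin probes and Mip. Aldh3a1 lies at 2.85 with a slope of -0.64.

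On the linear scale the called probes of the middle arrays lay nearer the lens-poor than the lens-rich median. The median Crygs intensity was 16753 in lens-rich, 1920 in middle and 165 in lens-poor arrays, so the middle arrays stood 10.6% of the way from the lens-poor to the lens-rich median. The same figure was 2.46% for Mip, 1.97% for Aldh3a1 and 6.79% for Fabp5. Over the 14 crystallin probes it had a median of 6.56% (2.53% to 14.1%), and over the 19 other called probes a median of 6.73% (1.93% to 35.6%). This comparison was added after the values were seen.

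Likeness to Crygs was also measured over all 31 arrays as a Pearson correlation after the group means were removed. It is a description with no test, since the arrays that made the sets are among the 31. The 10 genes that are no crystallins with the highest values were Mip (0.893), Lgsn (0.796), Lim2 (0.780), Bfsp1 (0.775), Bfsp2 (0.751), Fabp5 (0.730), Cd24a (0.729), Gss (0.727), Aqp5 (0.714) and Tbcb (0.713). Gss, the glutathione synthetase, and Tbcb, a tubulin folding cofactor, were not called, with differences of 0.61 and 0.25 and overlapping sets. All 31 arrays share the quantile normalization that these correlations rest on.

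Regulators and epithelial markers of the lens were read the same way, and with 0.197% of all probes called a count of 0 says little about lists of this size. Of 11 measured lens transcription and RNA regulators 0 were called, with a median difference of 0.14. Hsf4, a heat shock factor needed for lens fibre maturation, had levels of 6.11, 6.80 and 7.42 against 6.13, 6.27 and 6.67, a difference of 0.37. Foxe3, the forkhead factor of the lens epithelium, was detected on 6 lens-rich and 3 lens-poor arrays and differed by 0.17. Sox2, Maf, Mab21l1 and Pax6, all of which retinal cells also make, differed by 0.35, 0.27, 0.26 and 0.14. By their brightest probes Six3 and Celf1 differed by 0.08 and 0.01, and Prox1, Tdrd7 and Rbm24 by -0.02, -0.11 and -0.12. Of the 9 lens epithelium markers 0 were called, with a median difference of -0.04, and 6 of 9 were below 0. Cdh1, E-cadherin, differed by 1.04 and Ptgds, a prostaglandin synthase of several eye tissues, by -0.95, both with overlap. Likeness to Crygs was 0.521 for Hsf4, 0.524 for Cdh1 and 0.464 for Foxe3. It was -0.174 for Tdrd7, -0.091 for Rbm24 and -0.089 for Celf1, and above 0 for the other measured regulators.

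Markers of the neighbouring tissues were read beside these values. All 16 pigment epithelium and melanocyte genes measured lay below 0, with a median difference of -0.66, and 0 were called. The 16 genes were read on the same arrays, so the count is not 16 independent results. For Ins2Akita minus wild type this list had a median of 0.56, and Ins2Akita gave 5 lens-poor and 2 lens-rich arrays. The part of study group in the difference was not tested. Tyrp1, an enzyme of melanin synthesis, had levels of 5.78, 8.33 and 12.14 against 6.99, 10.19 and 12.42, a difference of -1.28, so the sets overlapped over most of their range. All 14 corneal and conjunctival genes measured lay above 0, with a median difference of 0.46, and Aldh3a1 was the only one called. In the middle arrays, however, only 3 of these 14 genes had a slope on Crygs above 0. Their median slope was -0.09, and 0 passed. Krt14, a keratin of basal epithelium, and Upk1b, a uroplakin of surface epithelium, differed by 0.80 and 0.96, with overlap.

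The corneal score ran from -0.37 to 1.32 in the lens-rich arrays (median 0.16) and from -0.60 to 0.09 in the lens-poor arrays (median -0.32). The pigment epithelium score ran from -1.23 to 1.46 (median -0.27) against -0.74 to 1.52 (median 0.34). Aldh3a1 therefore sits both in the corneal list and among the genes called with Crygs, and the part of corneal cells in its difference was not tested. Ciliary body and iris markers had a median difference of -0.21 with 0 of 12 called. Rod markers had a median difference of -0.06 with 0 of 17 called, and their score ran from -0.12 to 0.00 in the lens-rich and from -0.11 to 0.11 in the lens-poor arrays. The lists for cones, bipolar, amacrine, ganglion, Muller and microglial cells, muscle and blood vessels also held 0 called genes, and of the chaperone list 1 of 12 was called, Hspb1. The chaperone score did not overlap, at 0.02 to 0.46 in the lens-rich and -0.19 to -0.01 in the lens-poor arrays. Its 12 genes had a median difference of 0.02, with 7 above 0 and 5 below.

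**Figure D5:**
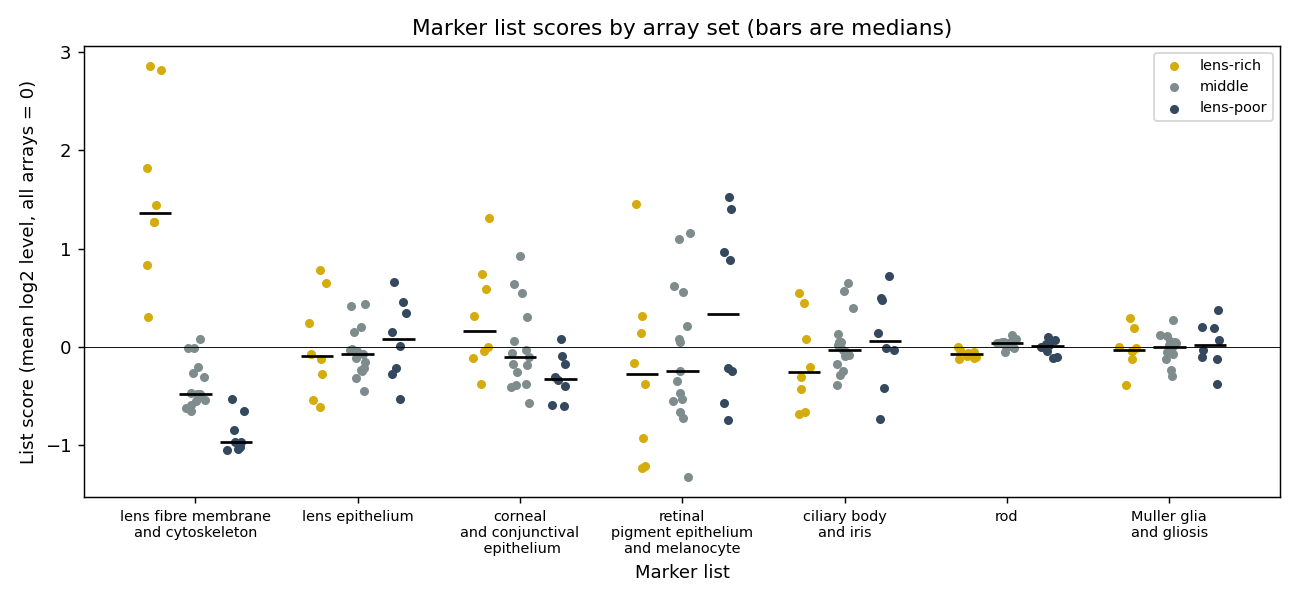
Score of 7 marker lists (mean log2 level, with the mean of all arrays at 0) for each array of the lens-rich, middle and lens-poor sets, with bars at the medians. The fibre list separates the lens-rich arrays, at 0.31 to 2.85, from the lens-poor arrays, at -1.05 to -0.52, and the other 6 lists overlap between the sets.

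The study groups were then compared over all 31 arrays for the probes called with Crygs. Ins2Akita minus wild type called 696 of 16743 probes (4.16%, with 1.76% higher and 2.4% lower) and 0 of the 33 called probes, and STZ minus untreated called 6 (0.0358%) and 0 of the 33, by limma at an adjusted p under 0.05. Untreated minus wild type, the 2 groups without diabetes, called 3723 (22.2%) and 0 of the 33. On the series matrix intensities 1 of the 33, Cdkn2b, passed for Ins2Akita minus wild type, at -0.28 (adjusted p = 0.0377, limma). In the fits reported here none of the 33 had an unadjusted p under 0.05 in either diabetes comparison. Crygs averaged 9.46 ± 3.12 in the 9 Ins2Akita arrays against 11.27 ± 3.12 in the 8 wild-type arrays (mean ± SD), a difference of -1.81 with a standard error of 1.25 (adjusted p = 0.449, limma). In STZ it was 11.73 ± 1.41 (SD, n = 6) and in untreated 10.22 ± 2.66 (SD, n = 8), a difference of 1.51 (adjusted p = 0.831, limma).

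The SD of Crygs inside Ins2Akita, wild type and untreated retinas was larger than either difference, while that inside the STZ group was smaller than both. Intensities spanned 58.1 to 22124 in Ins2Akita, 62.8 to 16776 in wild type, 1589 to 21103 in STZ and 81.6 to 22006 in untreated retinas. Of the 33 probes 31 lay below 0 in Ins2Akita minus wild type and 32 above 0 in STZ minus untreated, and the probes move together on shared arrays, so these counts are not independent. Mip differed by -1.62 and 1.20 (adjusted p = 0.508 and 0.883, limma). The difference of both diabetes changes called 3 of 16743 probes (0.0179%, with 0.0119% higher and 0.00597% lower) and 0 of the 33.

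Within groups that held arrays of both sets, the lens-rich minus lens-poor difference of Crygs was 6.59 in Ins2Akita (2 and 5 arrays), 7.59 in untreated (1 and 2) and 9.18 in wild type (3 and 1). For Mip it was 6.48, 8.55 and 6.94, for Lgsn 5.32, 8.46 and 4.00, and for Aldh3a1 3.52, 1.77 and 2.82. Hspb1 had 1.61, 4.44 and 0.95. STZ held no lens-poor array and gives no such value.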

How the data were processed

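The members, gene lists and tests were chosen with earlier results of these data known. The authors deposited 2 tables of linear probe intensity, made with BeadStudio per the submitters' processing notes (version not given in the sources used here). From the values, the table called not normalized had been background-subtracted and scaled to a mean of 351.836 on each array (lowest value -22.7772), and the series matrix, with a mean of 403.64, was a linear function of it. Background removal and scaling before deposit hide differences in total signal. The authors also deposited a detection p-value per probe. Of 25697 probes, 23978 had 1 gene symbol, 0 several and 1719 none.

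Arrays were ranked on the series matrix. Log2 levels came from neqc (offset 16) of limma 3.58.1 in R 4.3.3; probes with a detection p under 0.05 on at least 6 arrays were kept (16743). The offset understates differences of dim probes. Slopes on Crygs were fitted with lmFit and eBayes on the 15 middle arrays with group as a term (10 residual degrees of freedom), and study groups over 31 arrays; p-values were two-sided, with Benjamini-Hochberg adjustment over all probes kept. Bounds used the lowest signal well above background. The scripts were tested on simulated data. Named genes were the measured crystallin and lens genes, up to 3 per other list by size of difference, the 12 largest differences each way among calls that are no crystallins, the smallest slope p-values and the 10 genes most like Crygs. Alternatives were another normalization, no filter, other set sizes, other ranking probes, covariates, the BeadChip, a replicate block and single arrays left out. Same-numbered arrays correlated at -0.256 to 0.483 over the comparisons, so the numbers do not pair the samples. Python 3.11.15 with matplotlib 3.10.9 drew the figures. The number of arrays limits the precision.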

Additional observations from a re-analysis of the deposited data

Results flagged for a closer look

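Of 68 values examined for a single array standing apart, 7 did, by the gap to the nearest array over the range of the set. The cut-off stands for about 1 in 20 by chance among independent values. The 7 flagged values come from sets made by Crygs on these same arrays and share arrays, so the count is a description only. STZ 2 was the lowest lens-rich array for Cryba2 (12.09), Cryaa (10.88), Crybb2 (12.8) and the brighter Cryba1 probe (11.95), which share that array and its low Crygs. Ins2Akita 3 was the highest lens-poor array for Fabp5 (5.98), Ins2Akita 8 the highest for Cd24a (5.14), and untreated 6 the lowest for Csrp2 (7.19).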

How the results depend on the processing

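The count of 33 called probes was 28 to 34 under the other normalizations, without a filter, with other ranking probes and with group as a term. It was 62 with 6 against 6 arrays (59 higher, 3 lower), 17 with 10 against 10, and 52 without STZ 2 (51 higher, 1 lower); leaving out single arrays, added after the data were seen, gave 32 to 52, and 32 or 33 of the 33 probes were called in each such fit. The count of 9 slopes was 3 with the mean of the other beta and gamma crystallins in place of Crygs (11 of those probes were then not tested, and Crygs passed with a slope of 1.14) and 254 with pigment epithelium and corneal scores as covariates, of which 217 were downward and 1 was Bfsp1 (adjusted p = 0.0361, limma); the cause was not tested. Without single middle arrays it was 7 to 9, and without wild type 2 Cryaa had an adjusted p of 0.0517 (limma). An unchanged count of 9 did not always hold the same genes. Without untreated 8 Wiz passed in place of Mip, and without a detection filter Trim21 did.

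For Ins2Akita minus wild type, calls were 3953 on the series matrix (1 of the 33 probes among them, Cdkn2b), 448 with only the groups compared and 228 where BeadChip was a random block. For STZ minus untreated they were 2, 0 and 1 in the same order, and 17 with the replicate number as a replicate block. The block gave 848 for Ins2Akita minus wild type, and the numbers were not taken to pair the samples. The causes were not tested. With Crygs as a covariate, Cryba2 changed sign to 0.0333 for Ins2Akita minus wild type and to 0.078 for untreated minus wild type, and Mip to 0.00837 for Ins2Akita minus wild type and -0.164 for STZ minus untreated, none called. Signal over background limits the differences of the 18 called probes detected on some lens-poor arrays only, whose raised values were added after the data were seen, and of Cryga and Wnt7b, detected on none.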
